A study of Mus musculus with 12 samples.

Results

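The genes of glycolysis and of the hypoxia response were followed as a set of 32 members chosen by name, of 48709 gene identifiers in the count files. They comprise 2 glucose transporters (Slc2a1 and Slc2a3), 15 glycolytic enzymes (Hk1, Hk2, Gpi1, Pfkl, Pfkm, Pfkp, Aldoa, Aldoc, Tpi1, Gapdh, Pgk1, Pgam1, Eno1, Eno2 and Pkm) and 1 regulator of glycolytic rate (Pfkfb3). A further 5 handle lactate and pyruvate (Ldha, Ldhb, Slc16a1, Slc16a3 and Pdk1), 3 belong to oxygen sensing (Hif1a, Egln1 and Egln3), and 6 are genes known to respond to hypoxia (Bnip3, Ankrd37, Adm, Ddit4, Ndrg1 and P4ha1). All 32 were found in the files, and all 32 passed the filter on low counts in every comparison.

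RNA was sequenced from 12 libraries of sorted C57BL/6 mouse cells in 4 groups of 3. From the Hcrt reporter came mCherry-positive and mCherry-negative cells, and the MCH reporter gave EGFP-positive and EGFP-negative cells. Each culture began with hypothalami of embryonic day 18, which were dissociated and given virus at a multiplicity of infection of 10. An adeno-associated virus brought the mCherry reporter for cells that make HCRT (hypocretin), and lentivirus particles brought the EGFP reporter for cells that make MCH (melanin-concentrating hormone). Positive and negative cells of a sort thus shared the virus, neurosphere medium in low-adherence wells, basic fibroblast growth factor (10 ng/ml, from 24 h) and a week of culture, and all 12 libraries were amplified with 11 cycles of PCR. The sorts differed in virus, in reporter and in RNA input, which was 0.8 ng for the Hcrt sort and 2 ng for the MCH sort, so these cannot be told apart. The promoter behind each reporter is not given in the sources used here, nor is which libraries came from cells collected in medium and which from cells collected in lysis buffer. The labels do not say whether replicates were separate cultures, so p-values measure only the spread between these libraries, which may be technical.

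Glycolysis splits glucose into pyruvate in the cytosol and yields ATP without oxygen. Lactate dehydrogenase interconverts pyruvate and lactate, and monocarboxylate transporters carry lactate across the cell membrane. Under low oxygen the prolyl hydroxylases of the EGLN family lose activity, the alpha subunit of HIF (hypoxia-inducible factor) escapes degradation, and HIF raises the transcription of many glycolytic genes. In brain tissue astrocytes are known for high glycolytic activity and lactate release, and neurons can take up lactate as fuel. Neurospheres are dense balls of floating cells, and no oxygen level of the cultures is stated in the labels.

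The libraries held 16.3 to 32.9 megareads in genes, of which the 32 members took 0.815% to 1.19%. Levels are given as TMM-scaled CPM, counts per megaread in genes after correction for differences in RNA composition, and 3 counts in a library are the limit that a count of 0 would allow. The libraries carried no molecular identifiers and amplified reads are not independent, so that limit covers counting error only. Pmch, the gene of melanin-concentrating hormone, stood at 17.2 ± 0.769 plain CPM in EGFP-positive and 4.68 ± 0.587 plain CPM in EGFP-negative cells (SD, n = 3 each), whereas Hcrt had 21 reads in all mCherry-positive and 11 reads in all mCherry-negative libraries together. Neuron markers (10 genes) summed to 1143 to 2089 plain CPM in mCherry-positive and 865 to 1172 plain CPM in EGFP-positive libraries, while astrocyte markers (10 genes) summed to 8421 to 12524 plain CPM in mCherry-positive and 14542 to 18445 in EGFP-positive libraries. Within mCherry-positive cells replicate 1 stood apart: pituitary markers (10 genes) summed to 9.64 plain CPM there, against 2336 and 5548 in replicates 2 and 3. The microglia and macrophage markers (9 genes) summed to 765 plain CPM in that library, against 94.4 and 102 in the other two. The pituitary sum was also low in mCherry-negative replicate 1 (7.67 plain CPM, against 224 and 180 in mCherry-negative replicates 2 and 3). The members of the mCherry sort with an unadjusted p under 0.05 are therefore also given without mCherry-positive replicate 1. The red cell marker Alas2 reached at most 0.856 plain CPM. The 4 listed haemoglobin genes were listed at 0 in all 12 libraries, which for near-identical gene copies does not show absence, since reads that match several copies may go uncounted. The endothelial markers (8 genes) summed to at most 4.99 plain CPM.

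Per length, the aldolases and the lactate dehydrogenase subunits led, and regulated genes such as Hk2 and Ndrg1 stood at the low end. Levels here are TMM-scaled CPM per kilobase of annotated exon, averaged over the 12 libraries. Aldoc, the aldolase isozyme typical of brain, stood at 485, Ldha (the lactate dehydrogenase subunit that favours lactate formation) at 483 and Aldoa, the ubiquitous aldolase, at 467. The libraries of these leaders overlapped widely, at 318 to 729, 339 to 595 and 310 to 665, so their order is not resolved. Ldhb, the other lactate dehydrogenase subunit, followed at 372, then Tpi1 (triose phosphate isomerase) at 259, Pkm (pyruvate kinase) at 214 and Eno1 (enolase) at 140. The lowest were Hk2, an inducible hexokinase, at 3.41 and Ndrg1, a stress- and hypoxia-responsive gene, at 3.01.

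Gapdh, often a leading transcript, ranked only 21 of 32 at 17.7. Levels per length divide by all annotated exon bases, 4133 for Gapdh, whereas its longest coding transcript has 1420. This gap differs between genes (3263 against 2786 bases for Aldoc), so the order depends in part on the annotation. The Gapdh transcript also shared 82.5% of its 50-base words with other annotated transcripts, of which 215 were pseudogenes. Reads from such words cannot be placed in 1 gene, and 21.4% to 29.1% of all counted reads were listed as not unique. The shared part was 72.2% for Eno1, 68.0% for Pgk1, 41.5% for Pgam1, 34.4% for Pkm and 27.0% for Ldhb, so the levels of these genes are uncertain between genes. The exons of Gpi1 overlap another annotated gene over 11.5% of their bases, so its values are uncertain too. Slc16a1, Slc16a3, Aldoc, Pfkm, Ankrd37 and Ndrg1 were among 17 members that shared no such word.

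Across libraries the members varied to different degrees. The highest library exceeded the lowest 6.86-fold for Egln1, 6.49-fold for Slc16a1, 4.60-fold for Hk2 and 4.34-fold for Ndrg1. At the other end Pgk1, the ATP-forming phosphoglycerate kinase, varied 1.47-fold and Eno1 1.48-fold.

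**Figure D1:**
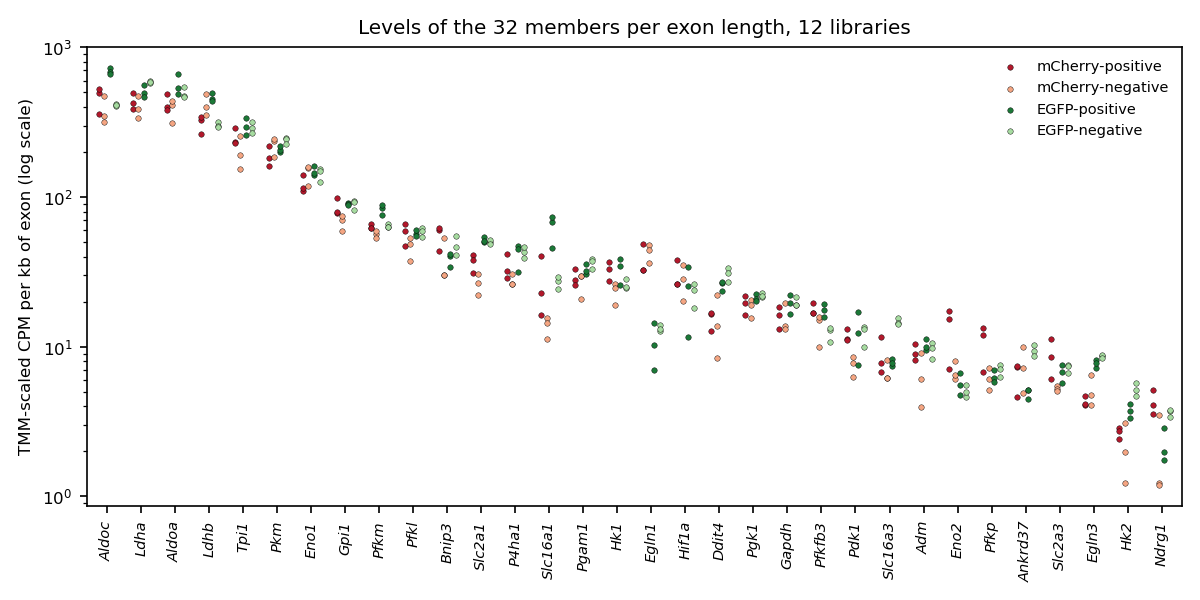
Level of each of the 32 members in each of the 12 libraries, in TMM-scaled CPM per kilobase of exon on a log axis, ordered by the mean over all libraries. Each point is 1 library, coloured by group. Aldoc, Ldha and Aldoa lead with overlapping ranges, and Hk2 and Ndrg1 are lowest.

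In EGFP-positive cells, set against EGFP-negative cells, the members did not move as a block. The lactate and pyruvate transporter Slc16a1, the brain aldolase Aldoc, the lactate dehydrogenase subunit Ldhb, the rate regulator Pfkfb3 and the phosphofructokinase Pfkm rose. The lactate exporter Slc16a3 and the hypoxia response genes Ankrd37 and Ndrg1 fell. With p-values from edgeR's quasi-likelihood test adjusted over 16326 genes (Benjamini-Hochberg), 5 of 32 members were higher and 3 lower at an adjusted p under 0.05, whereas 8.99% of all genes tested were higher and 7.07% lower. The called share of the members, 8 of 32, thus stood beside 16.1% over all genes. Without overlap between the groups 5 members were higher and 7 lower, whereas 18.6% of all genes were apart upward and 16.9% downward. A lack of overlap was thus common in this sort. The median log2 fold change of the members was -0.05, against -0.01 over all genes, with 13 members positive and 19 negative.

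Among the members called in this sort the largest rise was that of a monocarboxylate transporter, and its partner fell. Slc16a1 (MCT1, which carries lactate and pyruvate in either direction; chromosome 3, 104638668 to 104658462, plus strand, GRCm38) had 201, 301 and 324 TMM-scaled CPM in EGFP-positive libraries, against 107, 122 and 129 in EGFP-negative libraries. Every EGFP-positive library was above every EGFP-negative library, and EGFP-positive replicate 1 was the lowest of its group. The log2 fold change was 1.19 ± 0.18 (SE; adjusted p = 0.0026 by edgeR's quasi-likelihood test). Slc16a3 (MCT4, known for lactate export from glycolytic cells and as a HIF target; chromosome 11, 120948480 to 120960868, plus strand) went the other way. It had 39.7, 44.1 and 41.3 TMM-scaled CPM in EGFP-positive libraries, against 82.1, 76.1 and 74.9 in EGFP-negative libraries. Its groups lay far apart relative to their spread, and its log2 fold change was -0.92 ± 0.12 (SE; adjusted p = 0.0014 by edgeR's quasi-likelihood test).

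The lactate dehydrogenase subunits also parted. Ldhb (the subunit that favours pyruvate formation; chromosome 6, 142490249 to 142507957, minus strand) had 779, 710 and 685 TMM-scaled CPM in EGFP-positive libraries, against 496, 467 and 460 in EGFP-negative libraries. The groups did not overlap, and the log2 fold change was 0.59 ± 0.09 (SE; adjusted p = 0.0030 by edgeR's quasi-likelihood test). Ldha had 1861, 1646 and 1543 TMM-scaled CPM in EGFP-positive libraries and 1969, 1915 and 1941 in EGFP-negative libraries. Those groups did not overlap either, but the log2 fold change of -0.23 ± 0.09 (SE) did not pass (adjusted p = 0.11 by edgeR's quasi-likelihood test). Without EGFP-positive replicate 1, the highest of its group, Ldha was called lower at -0.29 (adjusted p = 0.0045 by edgeR). Pdk1, the kinase that shuts off pyruvate dehydrogenase, averaged 95.2 ± 36.7 TMM-scaled CPM in EGFP-positive and 95.4 ± 15.3 in EGFP-negative cells (SD, n = 3 each). Its EGFP-positive libraries ranged widely, at 58.5, 95.3 and 132, so a moderate difference was not detectable.

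Among the 15 glycolytic enzymes 2 rose and none passed as lower (all genes 8.99% and 7.07%). Aldoc (chromosome 11, 78322968 to 78327781, plus strand) had 2378, 2230 and 2178 TMM-scaled CPM in EGFP-positive libraries, against 1363, 1314 and 1334 in EGFP-negative libraries. With little spread within a group, its log2 fold change was 0.74 ± 0.07 (SE), and its adjusted p of 0.00048 (edgeR's quasi-likelihood test) was the smallest of the members. Aldoa had 1935, 1566 and 1429 TMM-scaled CPM in EGFP-positive libraries and 1582, 1380 and 1352 in EGFP-negative libraries, which overlapped. Pfkm, the muscle-type subunit of phosphofructokinase (chromosome 15, 98092589 to 98132451, plus strand), had 255, 280 and 297 TMM-scaled CPM in EGFP-positive libraries and 220, 212 and 211 in EGFP-negative libraries. The groups did not overlap, and the log2 fold change was 0.35 ± 0.10 (SE; adjusted p = 0.0415 by edgeR's quasi-likelihood test). Of the exon bases of Pfkm, 10.7% lie in other annotated genes, so part of its reads is uncertain.

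The other phosphofructokinase subunits overlapped between the groups. Pfkp, the platelet-type subunit, had 82.4, 77.4 and 93.0 TMM-scaled CPM in EGFP-positive libraries and 84.3, 100 and 95.1 in EGFP-negative libraries. Pfkl, the liver-type subunit, had 380, 365 and 402 TMM-scaled CPM in EGFP-positive libraries and 416, 398 and 360 in EGFP-negative libraries. The hexokinases, which trap glucose in the cell, had opposite signs without passing the test. Hk2 had 24.6, 22.3 and 19.8 TMM-scaled CPM in EGFP-positive libraries, against 27.9, 34.0 and 30.6 in EGFP-negative libraries, which did not overlap (log2 fold change -0.49 ± 0.15, SE; adjusted p = 0.0566 by edgeR's quasi-likelihood test). Without EGFP-positive replicate 1 Hk2 was called at -0.56 (adjusted p = 0.0126 by edgeR). Hk1, the hexokinase typical of brain, had 219, 295 and 328 TMM-scaled CPM in EGFP-positive libraries and 211, 243 and 212 in EGFP-negative libraries, with 1 EGFP-positive library inside the EGFP-negative range. Without that library, EGFP-positive replicate 1, Hk1 was called higher (adjusted p = 0.0025 by edgeR). The remaining enzymes (Gpi1, Tpi1, Gapdh, Pgk1, Pgam1, Eno1, Eno2 and Pkm) had log2 fold changes between -0.23 for Pkm and 0.14 for Eno2, none of which passed.

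Pfkfb3, which makes the sugar phosphate that activates phosphofructokinase (chromosome 2, 11471433 to 11554077, minus strand), had 119, 134 and 145 TMM-scaled CPM in EGFP-positive libraries, against 80.9, 98.3 and 101 in EGFP-negative libraries. The groups were apart by less than their own width, and the log2 fold change was 0.49 ± 0.13 (SE; adjusted p = 0.0333 by edgeR's quasi-likelihood test). The calls of Pfkm and Pfkfb3 were both lost without EGFP-positive replicate 2 or 3, or without any EGFP-negative replicate, with adjusted p up to 0.164 for Pfkm and 0.141 for Pfkfb3 by edgeR. Both were also lost in 1 fit of all 12 libraries. The glucose transporters did not pass: Slc2a1, the main transporter of glia and of the blood-brain barrier, averaged 182 ± 7.83 TMM-scaled CPM in EGFP-positive and 176 ± 5.83 in EGFP-negative cells (SD, n = 3 each). For Slc2a3, the transporter typical of neurons, the means were 48.3 ± 6.55 TMM-scaled CPM in EGFP-positive and 52.2 ± 3.61 in EGFP-negative cells (SD, n = 3 each).

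Of the 6 hypoxia response genes 2 fell and none rose (all genes 7.07% and 8.99%). Ankrd37, an ankyrin-repeat protein gene induced by HIF (chromosome 8, 45996902 to 46005707, minus strand), had 7.88, 7.90 and 6.91 TMM-scaled CPM in EGFP-positive libraries, against 14.3, 15.8 and 13.3 in EGFP-negative libraries. The log2 fold change was -0.96 ± 0.17 (SE; adjusted p = 0.0059 by edgeR's quasi-likelihood test), and the groups did not overlap. In 1 fit of all 12 libraries the call was lost (adjusted p = 0.0704 by edgeR). Its reads are uncertain, since 26.4% of its exon bases also lie in Lrp2bp and Ufsp2 on the opposite strand and the strand setting of the counting is not given in the sources used here. Ndrg1 (chromosome 15, 66929318 to 66969640, minus strand) had 11.5, 13.0 and 18.8 TMM-scaled CPM in EGFP-positive libraries, against 22.5, 24.5 and 24.7 in EGFP-negative libraries. Its log2 fold change was -0.74 ± 0.20 (SE; adjusted p = 0.0349 by edgeR's quasi-likelihood test), and 8.43% of its exon bases lie in other genes. That call was lost without EGFP-positive replicate 2 or without any EGFP-negative replicate, with adjusted p up to 0.151 by edgeR. It was also lost in 1 fit of all 12 libraries (adjusted p = 0.280 by edgeR).

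The other 4 response genes and the oxygen sensors did not pass. Bnip3, which marks mitochondria for removal, had a log2 fold change of -0.31 ± 0.14 (SE), an uncertain value since 22.3% of its exon bases also lie in an antisense gene. The log2 fold change of Ddit4, an inhibitor of mTOR signalling, was -0.27 ± 0.14 (SE), that of P4ha1, a collagen prolyl hydroxylase subunit, -0.07 ± 0.16 (SE) and that of Adm, the vasodilator peptide adrenomedullin, 0.07 ± 0.17 (SE). Hif1a, the oxygen-regulated subunit itself, had 68.5, 150 and 201 TMM-scaled CPM in EGFP-positive libraries, a spread that spanned the EGFP-negative range of 106 to 156. HIF is known to be regulated mostly at the protein level, which these counts do not measure. Egln1 and Egln3, the prolyl hydroxylases that mark HIF for degradation, had log2 fold changes of -0.35 ± 0.23 and -0.18 ± 0.14 (SE). Without EGFP-positive replicate 1 Egln1 was called lower (adjusted p = 0.0091 by edgeR).

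**Figure D2:**
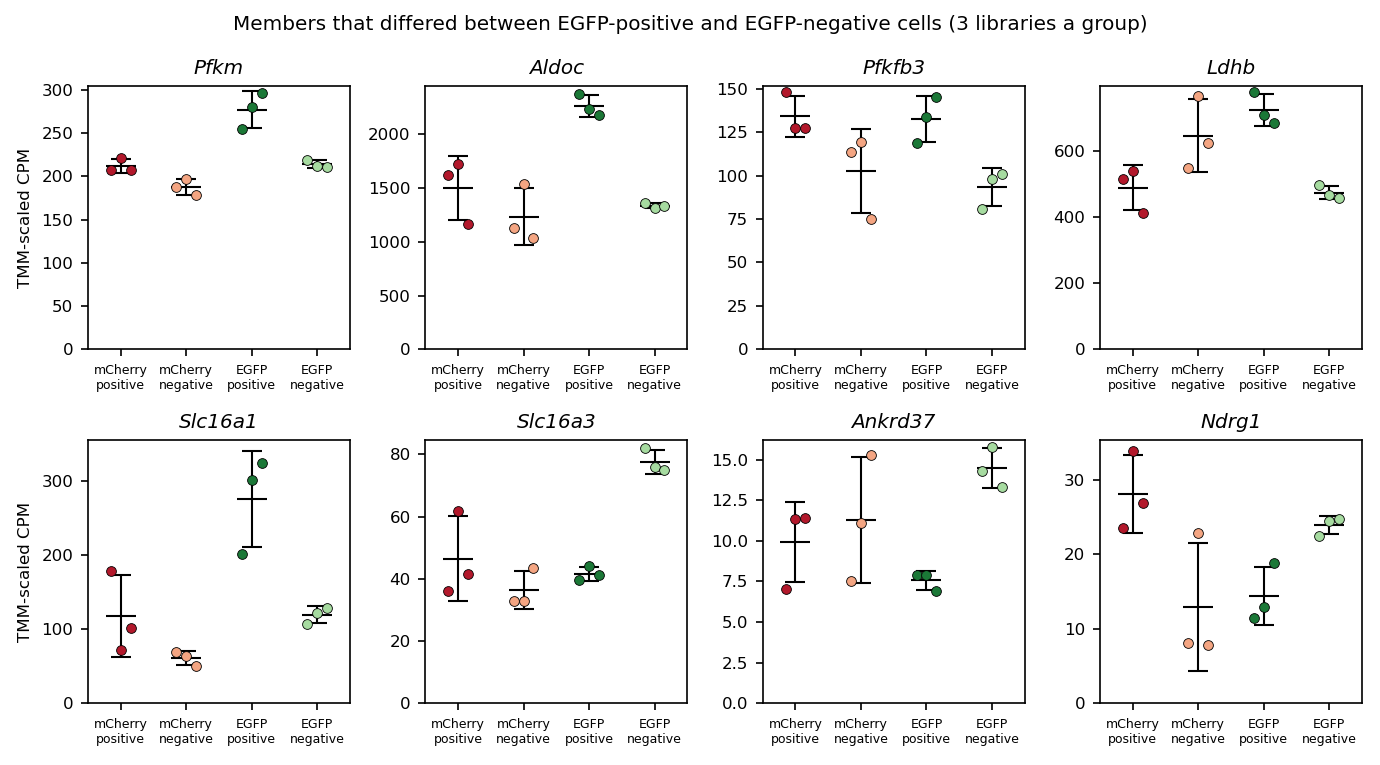
TMM-scaled CPM of the 8 members that differed between EGFP-positive and EGFP-negative cells, in all 4 groups. Points are libraries, and the bars give the mean ± SD of 3. In the EGFP sort Slc16a1, Aldoc, Ldhb, Pfkfb3 and Pfkm are higher in positive cells and Slc16a3, Ankrd37 and Ndrg1 lower, and each pair of groups is apart.

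Cell markers moved in the same comparison. Of 10 astrocyte markers 7 were higher and 1 lower, and their sum was 14542 to 18445 plain CPM in EGFP-positive and 8151 to 8491 in EGFP-negative libraries. All 7 oligodendrocyte precursor markers were lower, with sums of 1132 to 1185 plain CPM in EGFP-positive and 3862 to 4140 in EGFP-negative libraries. So were 6 of 7 mature oligodendrocyte markers, with sums of 1043 to 1055 plain CPM in EGFP-positive and 3267 to 3401 in EGFP-negative libraries. Of 9 microglia and macrophage markers 8 were lower and 1 higher (8.59 to 10.9 plain CPM in EGFP-positive, 43.3 to 59.7 in EGFP-negative libraries), and 6 of 10 neuron markers were lower (865 to 1172 plain CPM in EGFP-positive, 1425 to 1496 in EGFP-negative libraries). Of 7 ependymal markers 5 were higher (157 to 176 plain CPM in EGFP-positive, 93.0 to 104 in EGFP-negative libraries), and of 10 pituitary markers 4 were lower (38.5 to 66.3 plain CPM in EGFP-positive, 364 to 471 in EGFP-negative libraries). Of 8 mural and fibroblast markers 3 were higher and 4 lower (76.1 to 104 plain CPM in EGFP-positive, 315 to 348 in EGFP-negative libraries), and of 6 tanycyte markers 3 were higher (253 to 273 plain CPM in EGFP-positive, 166 to 173 in EGFP-negative libraries). Signs of RNA quality moved too: mitochondrial genes took 0.766% to 0.872% of gene reads in EGFP-positive and 1.16% to 1.36% in EGFP-negative libraries, and reads in no feature numbered 5.51 to 6.93 per 100 gene reads in EGFP-positive and 8.58 to 9.95 in EGFP-negative libraries. In a bulk sample fewer cells of a type and less RNA per cell cannot be told apart, and the part of these markers and of RNA quality in the changes of the members was not tested.

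Scaling mattered for the weaker calls. With library sizes alone in place of TMM factors the median log2 fold change over all genes moved to -0.12, and the calls over all genes split into 1114 higher and 1691 lower, against 1468 and 1154 with TMM. The members then counted 3 higher and 6 lower: Pfkm and Pfkfb3 dropped out, and Hk2, Pkm and Ldha passed as lower. Without EGFP-positive replicate 1, whose Hif1a, Pdk1 and Slc16a1 levels were the lowest of its group, 6 members were called higher and 6 lower, with 5244 calls over all genes against 2622. Aldoc, Ldhb, Slc16a1 and Slc16a3 were called in 14 of 14 alternative settings, with log2 fold changes of 0.63 to 0.77, 0.48 to 0.64, 1.06 to 1.38 and -1.03 to -0.87.

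To show the DNA upstream of transcript starts of the genes that changed, the 250 bases before RefSeq starts (GRCm38.p6) were searched. The words sought on both strands were ACGTG and GCGTG, the core words that HIF is known to bind. Some RefSeq starts lie inside a gene. The stretches of Slc16a3, Ankrd37, Ldha, Aldoc and Pfkfb3 below fall within the annotated span of the gene, not before it. A palindrome CACGTG counts as 2 words, 1 on each strand, and overlapping words form 1 longer run of capitals. The following stretches of 30 bases are read 5′ to 3′ on the gene's strand, with the words in capitals. They are given for the genes called in the EGFP sort and for Ldha, the partner of Ldhb. For each gene the stretch with the most words over all its RefSeq starts was picked. Windows at other starts of Ldha, Aldoc, Pfkm and Pfkfb3 are not shown, and the Pfkm window at 98111810 to 98112059 held 0 words. Ndrg1 and Slc2a3 are not among the sequences.
Slc16a3 (chr11:120949034-120949063, plus): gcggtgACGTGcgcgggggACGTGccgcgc
Ankrd37 (chr8:45999987-46000016, minus): ccttcactgcgCACGCGTGctgcggccgcc
Slc16a1 (chr3:104638452-104638481, plus): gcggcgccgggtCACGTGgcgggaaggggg
Ldhb (chr6:142508067-142508096, minus): agcgggggagagcGCGTGcacactccagcc
Ldha (chr7:46845750-46845779, plus): agcctaCACGTGggttcccgCACGTccgct
Aldoc (chr11:78323010-78323039, plus): tccacctctgaggGCGTGgccttaccctag
Pfkm (chr15:98092441-98092470, plus): aattaagtatgcCACGTGaagtaagtaatt
Pfkfb3 (chr2:11502126-11502155, minus): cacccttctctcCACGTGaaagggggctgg

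Such words stood upstream of transcript starts of genes that rose and of genes that fell. At least 1 word was present in 35 of 43 windows of the members (81.4%), against 8115 of 15114 windows (53.7%) of genes tested in the EGFP sort and 12679 of 32851 windows (38.6%) of all genes. The windows of the members and of the genes tested had similar medians of 14 and 15 CG dinucleotides, against 6 over all genes. The members were chosen by name and include known HIF targets, so that choice may itself set their share, and no conclusion is drawn from it. These letters describe the DNA only, and binding was not measured.

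In mCherry-positive cells, set against mCherry-negative cells, no member passed the test, although most had positive fold changes. The glucose transporters, hexokinase Hk1, phosphofructokinase Pfkp, neuronal enolase Eno2, Slc16a1, Pdk1 and Ndrg1 had the smallest p-values, all with positive fold changes. edgeR's quasi-likelihood test called 0 of 32 members at an adjusted p under 0.05, where 1.2% of 17369 genes were called. At an unadjusted p under 0.05 there were 8 members higher and 0 lower, where 18.6% of all genes were in either direction. DESeq2 called 5 of 32 higher (Slc2a3, Pfkp, Eno2, Slc16a1 and Pdk1), where it called 5.1% of all genes higher, and limma-voom called 0 (all genes 0.576% higher). Of the members 26 had a positive and 6 a negative fold change, with a median log2 of 0.32, whereas 51.4% of all genes were positive, with a median of 0.02.

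Pdk1 had the smallest p of the members. It averaged 92.2 ± 9.07 TMM-scaled CPM in mCherry-positive and 58.6 ± 8.83 in mCherry-negative cells (SD, n = 3 each), and the groups did not overlap. The log2 fold change of 0.66 ± 0.18 (SE) did not pass (adjusted p = 0.107 by edgeR's quasi-likelihood test). Without overlap 9 members were higher (Slc2a1, Slc2a3, Hk1, Gpi1, Pfkm, Pfkfb3, Slc16a1, Pdk1 and Ndrg1) and 1 lower (Ldhb), whereas 11.8% of all genes were apart upward and 14% downward. Slc2a1 averaged 129 ± 17.5 TMM-scaled CPM in mCherry-positive and 92.6 ± 14.2 in mCherry-negative cells, and Slc2a3 averaged 62.4 ± 18.6 in mCherry-positive and 38.0 ± 1.44 in mCherry-negative cells (SD, n = 3 each). Hk1 had 235, 313 and 282 TMM-scaled CPM in mCherry-positive libraries, against 225, 209 and 162 in mCherry-negative libraries.

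Several of the larger values rested on how 1 library stood to the others. Eno2, the neuron-specific enolase, had 33.4, 71.8 and 80.9 TMM-scaled CPM in mCherry-positive libraries, against 28.8, 30.4 and 38.0 in mCherry-negative libraries. Replicate 1, the library of this group with the low pituitary marker sum, lay within the mCherry-negative range, and without it Eno2 was called higher, at a log2 fold change of 1.24 (adjusted p = 0.0361 by edgeR's quasi-likelihood test), against 0.95 ± 0.31 (SE; adjusted p = 0.150) with all 3. Pfkp had 91.4, 178 and 160 TMM-scaled CPM in mCherry-positive libraries, against 69.0, 81.6 and 97.1 in mCherry-negative libraries, with the same library lowest. The neuron markers summed to 1143, 2089 and 1826 plain CPM in mCherry-positive libraries, against 1775, 1598 and 2148 in mCherry-negative libraries, with none of 10 called. The part of neurons and of pituitary cells in Eno2 and Pfkp was not tested. Without mCherry-positive replicate 1 the log2 fold changes were 1.04 for Pfkp, 0.92 for Slc2a3, 0.70 for Pdk1, 0.58 for Hk1, 0.40 for Slc2a1 and 1.22 for Ndrg1, with adjusted p of 0.0513 to 0.424 by edgeR, so none of these passed.

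Slc16a1 had its highest mCherry-positive value in the library that was lowest for Eno2. It stood at 179, 72.2 and 101 TMM-scaled CPM in mCherry-positive libraries, against 69.3, 64.0 and 49.99 in mCherry-negative libraries. The groups were apart by a small margin (log2 fold change 0.95 ± 0.31, SE; adjusted p = 0.150 by edgeR's quasi-likelihood test). Without mCherry-positive replicate 1 the log2 fold change of Slc16a1 was 0.51 ± 0.24 (SE; adjusted p = 0.348 by edgeR). Ndrg1 had 23.6, 33.9 and 26.9 TMM-scaled CPM in mCherry-positive libraries, against 8.13, 22.9 and 7.81 in mCherry-negative libraries. Here mCherry-negative replicate 2 was almost as high as the positive cells, and the log2 fold change was 1.12 ± 0.41 (SE; adjusted p = 0.191 by edgeR), or 1.84 without that library, which did not pass either. Ldhb had 517, 540 and 412 TMM-scaled CPM in mCherry-positive libraries, against 550, 768 and 624 in mCherry-negative libraries, a log2 fold change of -0.39 ± 0.19 (SE) that did not pass.

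The remaining members of the mCherry sort did not pass either. Among enzymes the log2 fold changes were 0.36 for Hk2, 0.33 for Gpi1 and Tpi1, 0.32 for Pfkl, 0.29 for Aldoc, 0.18 for Pfkm and -0.24 for Pkm. Aldoa, Gapdh, Pgk1, Pgam1 and Eno1 lay between -0.23 and 0.13, and Pfkfb3, Slc16a3 and Ldha had 0.40, 0.36 and 0.13. Among response genes, Bnip3 had 0.55 ± 0.26, Adm 0.53 ± 0.34, P4ha1 0.32 ± 0.19, Ddit4 0.07 ± 0.33 and Ankrd37 -0.17 ± 0.35 (log2 fold change ± SE), again with none that passed. Hif1a, Egln1 and Egln3 had 0.12 ± 0.24, -0.17 ± 0.21 and -0.24 ± 0.28. The standard errors of this sort were about as large as many of the differences, so changes of this size were not detectable here.

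Of 10 markers of dividing cells 6 were lower in mCherry-positive cells, with sums of 295 to 414 plain CPM in mCherry-positive and 797 to 1034 in mCherry-negative libraries, and 1 astrocyte, 1 ependymal and 1 tanycyte marker were higher. The astrocyte markers (10 genes) summed to 8421 to 12524 plain CPM in mCherry-positive and 4139 to 7544 in mCherry-negative libraries. Without overlap, oligodendrocyte precursor markers (7 genes, 0 called) summed to 1813 to 2581 plain CPM in mCherry-positive and 2685 to 3470 in mCherry-negative libraries, tanycyte markers (6 genes) to 224 to 276 in mCherry-positive and 98.2 to 118 in mCherry-negative libraries, and ependymal markers (7 genes) to 79.8 to 135 in mCherry-positive and 31.6 to 62.6 in mCherry-negative libraries. Mitochondrial genes took 1.06% to 1.54% of gene reads in mCherry-positive and 0.805% to 0.953% in mCherry-negative libraries. Their part in the members' values was not tested.

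**Figure D3:**
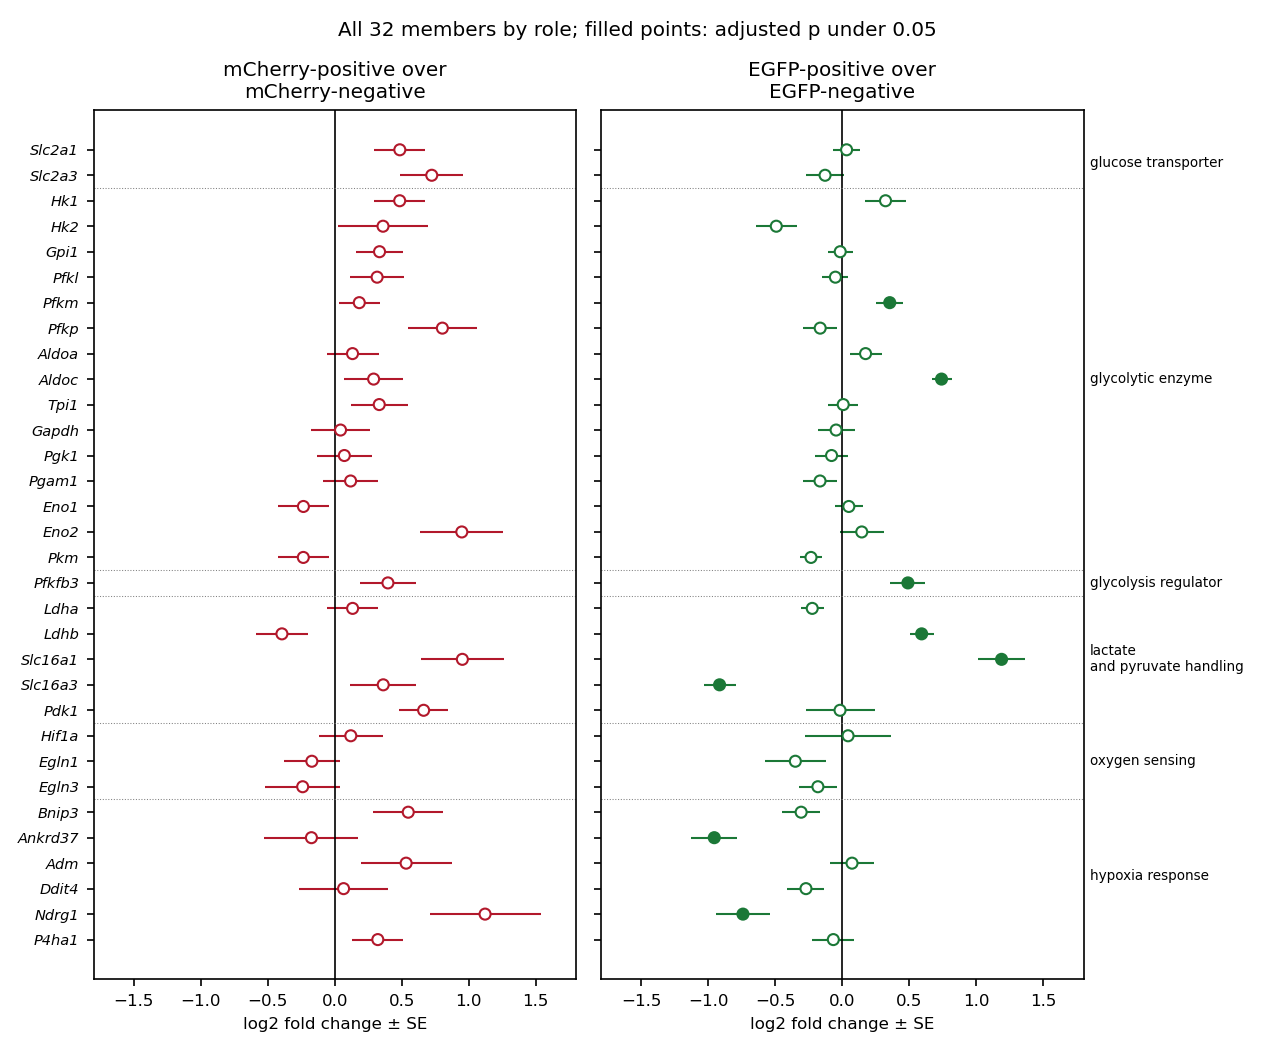
Log2 fold change of each of the 32 members, grouped by role, with its standard error, in mCherry-positive over mCherry-negative cells (left) and EGFP-positive over EGFP-negative cells (right). Filled points passed at an adjusted p under 0.05, 0 members on the left and 8 on the right.

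The difference between both effects was tested in 1 fit of all 12 libraries, as the mCherry effect minus the EGFP effect, and it shares its libraries with the comparisons above. Ldhb and Slc16a3 passed, in opposite directions, 1 lower and 1 higher of 32 members, and 1.44% of 18063 genes were called (0.886% higher and 0.559% lower). For Ldhb the difference was -1.01 ± 0.21 (log2 ± SE; adjusted p = 0.0304 by edgeR's quasi-likelihood test), from -0.39 in the mCherry sort and 0.59 in the EGFP sort. For Slc16a3 it was 1.25 ± 0.28 (log2 ± SE; adjusted p = 0.0406 by edgeR's quasi-likelihood test). Slc16a3 had 36.0, 61.9 and 41.6 TMM-scaled CPM in mCherry-positive libraries and 33.0, 32.9 and 43.4 in mCherry-negative libraries, which overlapped, so the difference came with a fall in the EGFP sort and a positive value of 0.36 ± 0.25 (SE) that did not pass in the mCherry sort. Ndrg1 had the largest difference, 1.84 ± 0.50 (log2 ± SE), which did not pass (adjusted p = 0.0898 by edgeR).

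Both calls were fragile to the loss of a library. Ldhb was lost without mCherry-positive replicate 3 (adjusted p = 0.0610), without mCherry-negative replicate 2 (0.0721) and without any 1 of the 6 EGFP libraries (0.0597 to 0.111), by edgeR, while the difference itself stayed between -1.13 and -0.87. Slc16a3 was lost in 10 of 12 such fits, all but those without mCherry-positive replicate 1 and without mCherry-negative replicate 3, with adjusted p up to 0.114 by edgeR and the difference between 0.98 and 1.43. Without mCherry-negative replicate 2, the high library of its group, Ndrg1 passed at 2.54 (adjusted p = 0.00688 by edgeR). Without mCherry-positive replicate 1, Slc2a3 (1.05, adjusted p = 0.0299), Pfkp (1.20, adjusted p = 0.0126 by edgeR) and Eno2 passed too. With library sizes alone the median difference over all genes moved to 0.13, and the calls over all genes split into 235 higher and 60 lower, against 160 and 101 with TMM.

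Ratios of isozymes within a library do not depend on how libraries are scaled. In both sorts 8 pairs were compared, as shares of the pair's summed level per exon length. The size of a share depends on the length used. All annotated exon bases were 1570 for Ldhb and 3310 for Ldha, whereas their longest coding transcripts have 1304 and 1815. Differences of log2 ratios between groups do not depend on length. With 3 libraries against 3 an exact 2-sided permutation test cannot go below p = 0.1, and the smallest value after adjustment over the 16 tests was 0.2, so none could pass. Ldhb took 46.9%, 47.6% and 48.3% of the lactate dehydrogenase pair in EGFP-positive libraries, against 34.7%, 34.0% and 33.3% in EGFP-negative libraries. In the mCherry sort it took 43.8%, 40.8% and 40.4% in positive libraries, against 50.8%, 55.7% and 45.7% in negative libraries. Positive cells of the sorts thus stood on opposite sides of their negative cells, with no overlap in either sort. Of all single genes tested, 25.8% were without overlap in the mCherry sort and 35.5% in the EGFP sort. On the log2 scale the ratio of Ldhb to Ldha differed by 0.82 in the EGFP sort and by -0.53 in the mCherry sort (exact permutation p = 0.1 each).

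The transporter pair showed the widest gap. Slc16a3 took 14.1%, 10.9% and 9.58% of the pair in EGFP-positive libraries, against 38.9%, 34.2% and 32.5% in EGFP-negative libraries, a log2 ratio lower by 2.08. In the mCherry sort its share was 14.3%, 41.6% and 25.5% in positive libraries and 28.4%, 29.99% and 41.9% in negative libraries, which overlapped. Aldoc took 55.3% ± 2.73 of the aldolase pair in EGFP-positive and 45.4% ± 1.75 in EGFP-negative cells, and Hk2 took 10.5% ± 3.00 of the hexokinase pair in EGFP-positive and 16.6% ± 0.622 in EGFP-negative cells (SD, n = 3 each). Against Pfkm, Pfkp took 7.05% ± 0.534 in EGFP-positive and 9.80% ± 0.957 in EGFP-negative cells, and Pfkl took 40.9% ± 1.71 in EGFP-positive and 47.7% ± 1.46 in EGFP-negative cells (SD, n = 3 each). These 4 pairs did not overlap between the EGFP groups, nor did the lactate dehydrogenase and lactate transporter pairs. Of the 8 pairs compared, only the enolase and glucose transporter pairs overlapped there. Of all single genes tested, 35.5% did not overlap either. The Pfkp and Pfkl pairs share Pfkm, so they are not independent of each other.

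In the mCherry sort the only pair without overlap besides lactate dehydrogenase was enolase, of 8 pairs compared. Of all single genes tested there, 25.8% were without overlap. Eno2 took 9.62% ± 3.45 of the enolase pair in mCherry-positive and 4.58% ± 0.518 in mCherry-negative cells (SD, n = 3 each). The log2 ratio was higher by 1.09 (exact permutation p = 0.1). Eno1 itself had 589, 758 and 619 TMM-scaled CPM in mCherry-positive libraries and 640, 837 and 849 in mCherry-negative libraries, which overlapped.

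**Figure D4:**
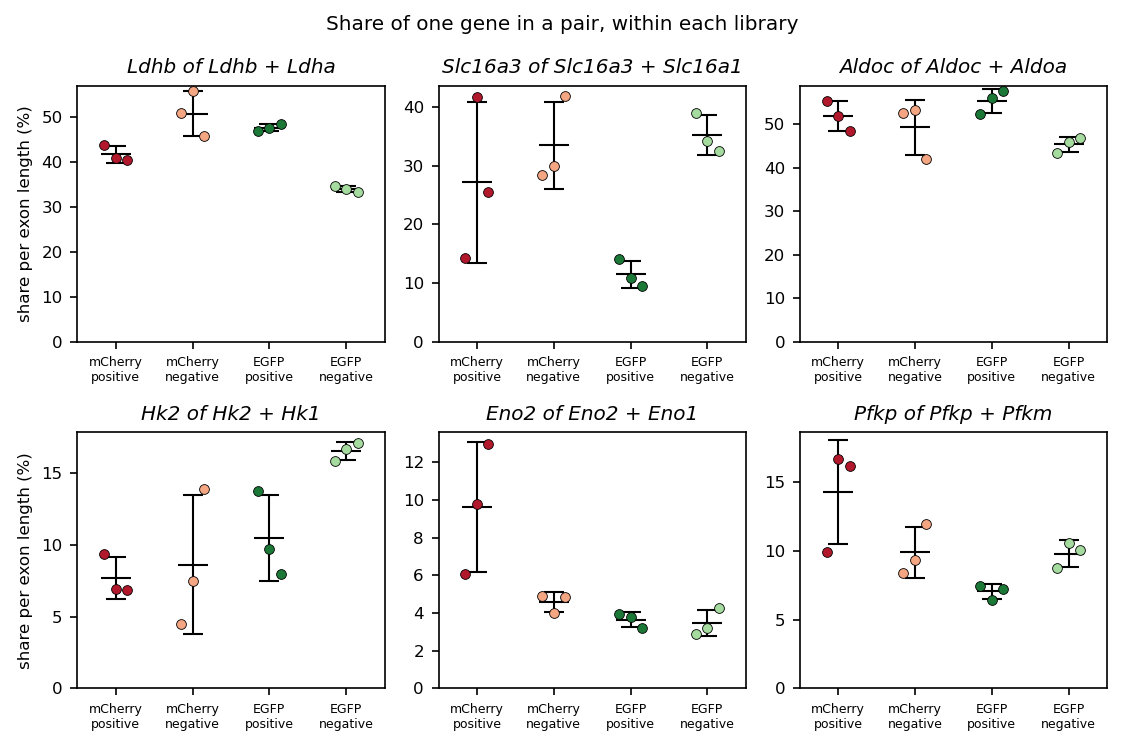
Share of the first-named gene in the summed level of 2 members per exon length, in percent, within each library. Points are libraries and bars the mean ± SD of 3 in the 4 groups. Ldhb makes up more of its pair in EGFP-positive than in EGFP-negative cells and less in mCherry-positive than in mCherry-negative cells.

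Levels also differed between the sorts, with positive and negative cells of each sort averaged. In the mCherry sort the oxygen sensor Egln1 and neuronal enolase Eno2 were higher, and glucose transporter Slc2a1, hexokinase Hk2, Slc16a1, Ldha, Egln3 and Ddit4 were among those lower. By edgeR's quasi-likelihood test 2 of 32 members were higher and 12 lower, where 10.5% of 18063 genes were higher and 8.04% lower. The median log2 difference of the members was -0.26, against -0.01 over all genes. Sort, virus, reporter and RNA input are confounded here, so none of them can be told apart.

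Egln1, the main oxygen-sensing hydroxylase, ranged from 117 to 173 TMM-scaled CPM over the 6 mCherry libraries, against 25.3 to 51.9 over the 6 EGFP libraries. The sorts did not overlap, and the log2 difference of 1.77 ± 0.17 (SE; adjusted p = 1.09e-05 by edgeR's quasi-likelihood test) was the largest of the members. Egln3, another hydroxylase of the family, ran the opposite way, at 10.8 to 17.3 TMM-scaled CPM in the mCherry sort and 19.1 to 23.3 in the EGFP sort (-0.79 ± 0.14, SE; adjusted p = 0.0014 by edgeR). Ddit4 had 14.8 to 39.0 TMM-scaled CPM in the mCherry sort and 41.1 to 59.1 in the EGFP sort, again without overlap (-0.90 ± 0.19, SE). Slc2a1 was also apart, at 78.1 to 144 TMM-scaled CPM in the mCherry sort and 169 to 190 in the EGFP sort, and so was Hk2, at 7.39 to 18.3 in the mCherry sort and 19.8 to 34.0 in the EGFP sort. So 5 of 32 members were without overlap, 1 upward and 4 downward, where 5.63% of all genes were apart, 3.79% upward and 1.84% downward.

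Slc16a1 was lower by a log2 difference of -1.10 ± 0.20 (SE), Ldha by -0.39 ± 0.10, and Eno2 was higher at 0.84 ± 0.19, and edgeR's quasi-likelihood test gave adjusted p = 0.0016, 0.0158 and 0.0075. Together with Egln1, Egln3, Ddit4, Slc2a1 and Hk2, these were called in 19 of 19 alternative settings. The other 6 calls (Pfkm, Aldoa, Aldoc, Tpi1, Slc16a3 and P4ha1) had log2 differences of -0.47 to -0.29 and were each lost when single libraries were left out, with adjusted p up to 0.103 by edgeR. Leaving out any of the 12 libraries ended at least 1 of these calls, and the count of lower members then was 6 to 12. With library sizes alone it was 7, and the calls over all genes split into 2201 higher and 1000 lower, against 1897 and 1453 with TMM. Of the markers, all 10 of dividing cells, 3 of 10 astrocyte and 4 of 7 ependymal markers were lower in the mCherry sort, and 8 of 9 microglia, 4 of 7 mature oligodendrocyte and 4 of 10 neuron markers were higher. Dividing cell markers summed to 295 to 1034 plain CPM in the mCherry sort and 888 to 1146 in the EGFP sort, and microglia and macrophage markers to 34.4 to 765 in the mCherry sort and 8.59 to 59.7 in the EGFP sort. Their part in the members' differences was not tested.

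**Figure D5:**
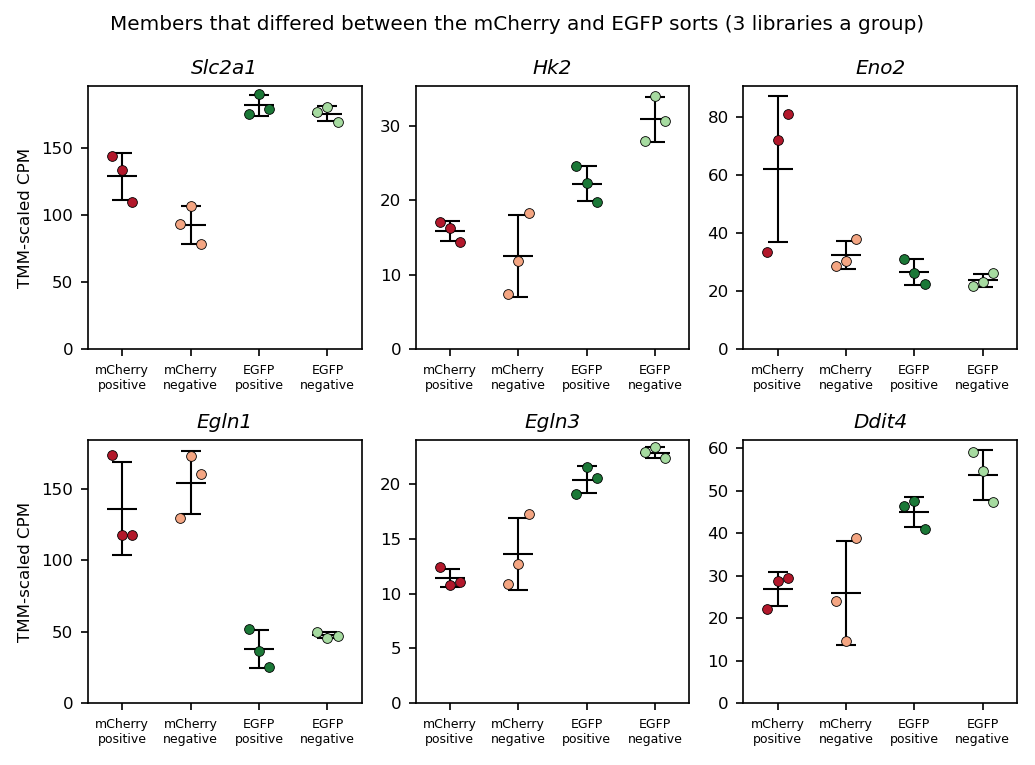
TMM-scaled CPM of 6 members that differed between the sorts, in all 4 groups. Points are libraries and bars the mean ± SD of 3. Egln1 and Eno2 are higher in the mCherry sort, Eno2 with overlap, and Slc2a1, Hk2, Egln3 and Ddit4 are lower.

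A pair of wider lists places the members among the rest of their pathways. Of 33 other genes of glycolysis and pyruvate metabolism 31 were tested in the EGFP sort, where 4 were higher and 2 lower (all genes 8.99% and 7.07%), with a median log2 fold change of 0.04 (all genes -0.01). Eno4, an enolase known from sperm, rose by 1.25 ± 0.18 (log2 ± SE; adjusted p = 0.0020 by edgeR's quasi-likelihood test), Pdk4, another kinase of pyruvate dehydrogenase, by 1.05 ± 0.20 and Pcx, the carboxylase that feeds pyruvate into the citric acid cycle, by 0.69 ± 0.11. Gpd1, a glycerol phosphate dehydrogenase, fell (-0.75 ± 0.12). Of 40 other HIF pathway and hypoxia genes 39 were tested, of which 5 were higher and 2 lower beside the same shares, with a median of 0.08. Haem oxygenase Hmox1 (0.85 ± 0.10), glycogen branching enzyme Gbe1 (0.89 ± 0.16) and the transcriptional repressor Bhlhe40 (0.54 ± 0.10) rose, whereas the collagen cross-linking enzyme Lox fell (-2.77 ± 0.48, log2 ± SE).

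In the mCherry sort 0 of 30 and 0 of 39 of these genes were called by edgeR (all genes 1.2%), and in the difference between effects 0 of 31 and 0 of 39 (all genes 1.44%). Between the sorts 2 of 31 glycolysis and pyruvate genes were higher and 3 lower (all genes 10.5% and 8.04%), among them Bsg, the chaperone of monocarboxylate transporters (-0.57 ± 0.12), Pcx (-0.52 ± 0.13), Pdk4 (-0.78 ± 0.21) and Pdp1, a pyruvate dehydrogenase phosphatase (0.42 ± 0.13, log2 ± SE). Of 39 HIF pathway and hypoxia genes 3 were higher and 8 lower in the mCherry sort, beside the same shares of all genes. Mxi1, a repressor of MYC activity (0.92 ± 0.12), and Cited2, which competes with HIF for its coactivator (1.13 ± 0.21), were higher, and Stc2, a secreted glycoprotein (-0.95 ± 0.16), and Epas1, the second HIF alpha subunit (-1.15 ± 0.21, log2 ± SE), were lower.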

How the data were processed

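The authors deposited 1 table of raw read counts per Ensembl gene for each library, without normalization. Per the submitters' processing notes, build GRCm38, HTSeq 0.6.1, STAR 2.5.2b and cutadapt 1.8 were used, and settings, annotation release and strand are not given in the sources used here. Entries that name no gene (31.4% to 38.2% of counted reads) were left out. GENCODE M21 gave symbols, positions and exon lengths for 48349 of 48709 identifiers.

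Comparisons used edgeR 4.0.16 in R 4.3.3 (TMM, filterByExpr with minimum count 10 and minimum total 15, quasi-likelihood test, Benjamini-Hochberg over all genes tested, threshold 0.05). Each reporter was fitted on its own 6 libraries, and the difference of effects and the sorts on all 12, with group as the only term. The standard error is the absolute log2 fold change over the root of the F statistic. Isozyme ratios had 0.5 added to each count. Alternatives were other scalings and filters, DESeq2 1.42.0, limma 3.58.1 (voom), a replicate block, 1 fit of all libraries and leaving out each library. The fits were tested on simulated data. Replicates differed by more than counting error (chi-square per degree of freedom 6.54 to 97.0), so none was a copy.

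Members and lists were chosen with earlier results of these data known. Values per library are given for members called in a reporter comparison or the difference and for isozyme pairs without overlap, and from each list up to 4 called genes of smallest adjusted p.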

Additional observations from a re-analysis of the deposited data

Results flagged for a closer look

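Ldhb was marked because its effect differed between the sorts, with a log2 difference of -1.01 (mCherry effect minus EGFP effect). Slc16a3 was marked for the same reason, at 1.25. The Ldhb to Ldha ratio was marked because every mCherry-positive library lay below every mCherry-negative library (mean log2 ratio lower, at -0.53), whereas every EGFP-positive library lay above every EGFP-negative library (0.82); this difference between the ratios was not tested. Ndrg1 was marked because its groups were apart upward in the mCherry sort and apart downward in the EGFP sort, with a difference of 1.84 that did not pass (adjusted p = 0.0898 by edgeR's quasi-likelihood test). All groups hold 3 libraries, too few for a test of single outlying samples.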

How the results depend on the processing

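No called member changed direction in any alternative that was run. For mCherry-positive over mCherry-negative cells the members called higher numbered 0, but 1 with no filter, 5 with DESeq2 and 4 in 1 fit of all 12 libraries, and 0 to 1 when 1 library was left out. All genes called there numbered 208, but 778 with no filter, 316 with a stricter filter, 1476 with DESeq2, 343 with the replicate block, 1712 in the fit of all 12 libraries and 0 to 212 with 1 library left out. For EGFP-positive over EGFP-negative cells 5 members were higher, but 3 with library sizes only, 3 in the fit of all 12 libraries and 3 to 6 with 1 library left out. There 3 were lower, but 6 with library sizes only, 1 in the fit of all 12 libraries and 2 to 6 with 1 library left out. All genes called numbered 2622, but 801 in the fit of all 12 libraries, which takes 1 spread for both sorts, and 1137 to 5244 with 1 library left out. In the difference of effects 1 member was higher, but 2 with no filter, 3 with DESeq2 and 0 to 4 with 1 library left out, and 1 was lower (0 to 1 with 1 library left out). All genes called numbered 261, but 675 with no filter, 894 with DESeq2 and 27 to 591 with 1 library left out. Between the sorts 12 members were lower, but 7 with library sizes only and 6 to 12 with 1 library left out. The cause of these changes was not tested.

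Deviations of same-numbered libraries correlated at 0.126 (mCherry) and 0.114 (EGFP) for replicate 1 but at -0.02 to 0.03 for replicates 2 and 3 of either sort. Positive and negative libraries of unlike number correlated at -0.137 to 0.126 in the mCherry sort and -0.101 to 0.0778 in the EGFP sort. Such correlations over 3 libraries a group cannot show whether the numbers pair the libraries, and the labels do not say. The numbers were therefore not used as pairs in the main fits, and whether they are pairs is not settled. Over all genes the EGFP sort had 1874 higher and 1535 lower with the replicate block, against 1468 and 1154 without it. With the replicate block the EGFP sort had 4 lower members (Hk2 joined), the difference lost Slc16a3 (adjusted p = 0.0590) and gained Ndrg1 (adjusted p = 0.0284 by edgeR). With 3 libraries a group, the standard errors limit what could be called, and depth limits the precision of members with few reads.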
